A study of Mus musculus with 8 samples.

Results

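The 10 genes described here encode titin, its cap at the Z-disc and proteins that link titin to actin or respond to stretch: Tcap, Ttn, Csrp3, Ankrd1, Ankrd23, Myoz2, Ldb3, Mypn, Actn2 and Fhl2. The set was selected on measured values, the difference between db/db and db/m in these same libraries, which was known when the genes were listed. They were then taken by name from the 55573 genes of a count table of mouse heart RNA, and their differences between genotypes are given as descriptions, with no p-value. All 10 had rows in the table and all 10 passed the filter on low counts, which left 17411 genes. There were 4 libraries from db/m and 4 from db/db hearts, all from male C57BLKS/J mice at 24 weeks of age. A db/db mouse is homozygous for the db mutation of the leptin receptor gene in every cell and develops obesity and diabetes, and db/m, the control, carries 1 mutant copy without that disease. The labels do not say whether each library came from its own animal, so the spread between libraries may be partly technical.

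The Z-disc is the border of the sarcomere, where actin filaments of neighbouring units are crosslinked by alpha-actinin and where the N-terminal end of the giant spring protein titin is anchored. Telethonin, the product of Tcap, caps that end by binding a pair of titin molecules. LIM-domain and ankyrin-repeat proteins sit at the Z-disc and along the titin spring, and several of them can also move to the nucleus, which is why this region of heart muscle is studied as a sensor of mechanical strain. Mutations of many of these genes are known from inherited cardiomyopathy.

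Total counts per library ran from 19541757 to 22249911. Levels are given as CPM, the usual depth-scaled count, relative to TMM-scaled library sizes, a scaling that aligns the bulk of genes between libraries. A fold change above 1 means more in db/db. Heart muscle was plainly present: all 10 ventricular marker genes were detected, with summed levels of 30161 to 38862 CPM (db/m) and 34058 to 41179 CPM (db/db), and db/m replicate 3 was the lowest library in 8 of them. Markers of other tissue stood apart in 2 control libraries. In db/m replicates 1 and 3 all 8 adipocyte markers and all 8 atrial markers lay above the other 6 libraries, with summed levels of 326 and 1196 CPM for adipocytes and 2039 and 4651 CPM for atrial muscle, against at most 37.4 and 163 CPM elsewhere in the series. The atrial sums do not rank these 2 libraries, because Bmp10 had 74283 counts in db/m replicate 3 and 2334 in db/m replicate 1. By counts Sln, Myl4, Myl7 and Nppa were higher in db/m replicate 1. Bmp10, Dkk3, Mybphl and Stard10 were higher in db/m replicate 3, the last 2 only slightly. Of 6 fibroblast markers, 3 were above the other libraries in both db/m replicates 1 and 3. Some atrial markers were also raised, at much lower levels, in db/m replicate 4. It had 83 counts of Sln, 228 of Myl4, 48 of Mybphl and 13 of Myl7, against at most 0, 16, 1 and 6 in db/db. Its Bmp10, Nppa, Dkk3 and Stard10 counts were within the db/db range. That library stays in the fit without db/m replicates 1 and 3. Of 10 fast skeletal muscle markers, a tissue that also expresses Tcap, Myf6 was at 0 in all libraries and the whole list reached at most 22.8 CPM among controls, in db/m replicate 3, and 15.1 CPM among db/db hearts. The part of these other tissues in the values below was not tested. In bulk hearts fewer cells of a type and less RNA per cell cannot be told apart.

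Tcap stood out from the other genes. Its count is the output of a short gene with a single annotated transcript (ENSMUSG00000007877, chromosome 11, 98383811 to 98384953, plus strand, mm10), 948 bases in 2 exons, none of them shared with another gene. The coding sequence, without its stop codon, is 501 bases long, and its first 300 bases are shown because every Tcap value below rests on reads from this transcript. They are taken from GENCODE M21 on GRCm38, 5′ to 3′, with the 110 coding bases of exon 1 in lower case and the next 190 bases, in exon 2, in capitals.
Tcap, start of the coding sequence: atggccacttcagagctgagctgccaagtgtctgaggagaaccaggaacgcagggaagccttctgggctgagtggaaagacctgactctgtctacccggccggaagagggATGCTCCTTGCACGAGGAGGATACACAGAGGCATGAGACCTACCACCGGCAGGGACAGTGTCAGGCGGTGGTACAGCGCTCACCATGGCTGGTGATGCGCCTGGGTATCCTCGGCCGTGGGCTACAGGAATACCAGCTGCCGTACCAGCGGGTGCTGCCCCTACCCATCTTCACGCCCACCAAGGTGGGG

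Tcap had 437, 420, 197 and 550 CPM in db/m replicates 1 to 4 and 1145, 1405, 1425 and 1215 CPM in db/db replicates 1 to 4. The groups were far apart, with the lowest db/db library 2.08 times the highest db/m library. Means were 401 ± 148 and 1298 ± 139 CPM (SD, n = 4), a log2 fold change of 1.70 in 4 against 4 libraries (SE 0.27), or 3.24-fold. The lowest value of all belonged to db/m replicate 3. Without that library the db/m mean was 469 ± 71.0 CPM (SD, n = 3) and the log2 fold change 1.47 (SE 0.14), and without both db/m replicates 1 and 3 it was 1.41 (SE 0.15). These counts ran from 4759 to 30929 per library, so counting error is small beside the spread between libraries.

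**Figure D1:**
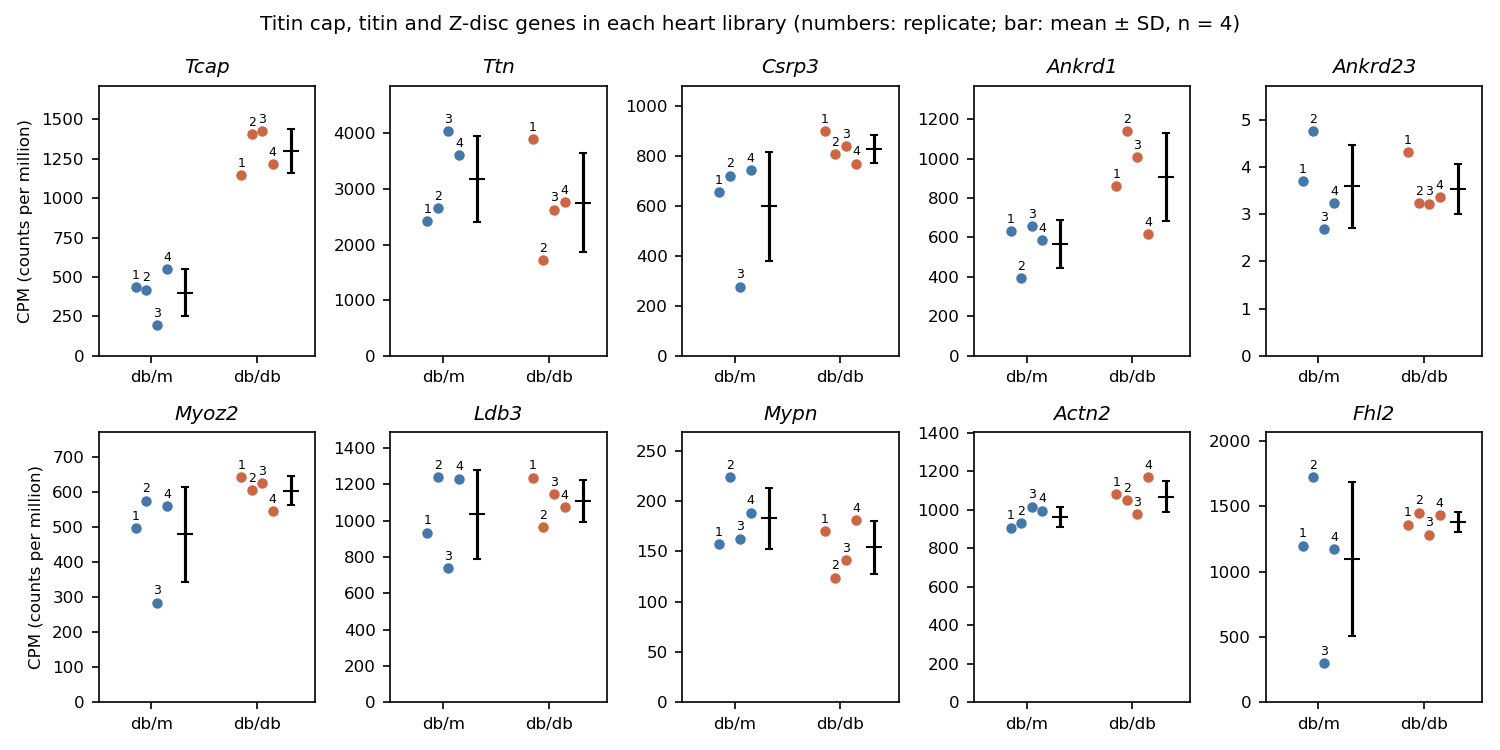
Level of each of the 10 genes in CPM (vertical axis, starting at 0) in the 4 db/m and 4 db/db libraries, with replicate numbers beside the points and mean ± SD (n = 4) as black bars. Tcap is the one gene with a wide gap, from 550 CPM at most in db/m to 1145 CPM at least in db/db, and db/m replicate 3 is the lowest point for 6 of the 10 genes.

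Because the genes were selected on this contrast, calls on them support nothing and are given beside the share of all genes called. edgeR's quasi-likelihood test over all 17411 genes with Benjamini-Hochberg adjustment called 0 of the 10 (0.00574% of all genes). Tcap alone passed with DESeq2 (2.21%), limma-voom with sample quality weights (0.747%), edgeR with the trend on gene length removed (0.0689%), with no filter on low counts (0.0902%), without db/m replicate 3 (0.6%) and without db/m replicates 1 and 3 (0.256%). Groups did not overlap in 2 members, Tcap and Csrp3, both higher, where 5.04% of all genes were higher without overlap. Of the 10 genes 7 had a positive log2 fold change and 3 a negative one, with a median of 0.24 against -0.02 for all genes. Without db/m replicates 1 and 3 the members divided 5 to 5, with a median of 0.01.

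Ttn encodes titin itself, the spring that spans from Z-disc to M-band (ENSMUSG00000051747, chromosome 2, 76703980 to 76982547, minus strand, 116825 exon bases). It had 2419, 2655, 4044 and 3605 CPM in db/m and 3900, 1725, 2630 and 2761 CPM in db/db. The groups overlapped widely, and the highest library was db/m replicate 3, where Tcap was lowest. Means were 3181 ± 771 and 2754 ± 892 CPM (SD, n = 4; log2 fold change -0.21, SE 0.26). With the trend on gene length removed the sign turned, to 0.15, so no direction can be given for Ttn.

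Csrp3 encodes the muscle LIM protein, a partner of telethonin at the Z-disc (ENSMUSG00000030470, chromosome 7, 48830398 to 48848033). It had 654, 721, 277 and 742 CPM in db/m and 899, 807, 838 and 769 CPM in db/db. Every db/db library was above every db/m library, but the gap between the nearest pair was narrow, at 1.04 times. Means were 599 ± 217 and 828 ± 55.2 CPM (SD, n = 4; log2 fold change 0.47, SE 0.27). Much of that distance lay in db/m replicate 3, since without it the log2 fold change was 0.24.

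The ankyrin-repeat genes differed from each other in level. Ankrd1 encodes CARP, a titin-spring protein that also acts in the nucleus and is known as a gene of loaded heart muscle (ENSMUSG00000024803, chromosome 19, 36111961 to 36120099). It had 633, 394, 657 and 585 CPM in db/m and 861, 1139, 1005 and 618 CPM in db/db. Replicate 4 of db/db fell inside the db/m range, and the other 3 db/db libraries were above it. Means were 567 ± 119 and 906 ± 223 CPM (SD, n = 4; log2 fold change 0.68, SE 0.22), the second largest difference among the 10, and it was 0.88 without db/m replicates 1 and 3. Ankrd23, a relative that also binds titin, had 2.69 to 4.76 CPM in db/m and 3.22 to 4.31 in db/db, from 63 to 97 counts per library. Its level is uncertain, because 78.2% of its exon bases (2109 of 2697) are shared on the same strand with the annotated gene Gm42417, which had 0 counts in all 8 libraries.

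Myoz2 encodes calsarcin-1, which ties the phosphatase calcineurin to alpha-actinin, and it ranged from 284 to 575 CPM in db/m and from 546 to 641 CPM in db/db. Ldb3 encodes ZASP or cypher, a PDZ-LIM scaffold of the Z-disc, and it ranged from 737 to 1237 CPM in db/m and from 965 to 1236 in db/db. Mypn encodes myopalladin, which binds nebulette and alpha-actinin, and had 157 to 223 CPM in db/m and 124 to 181 in db/db. The groups overlapped in all 3 of these genes, with log2 fold changes of 0.33 (SE 0.21), 0.10 (SE 0.19) and -0.25 (SE 0.17). The sign of Ldb3 turned without db/m replicates 1 and 3, to -0.16, while Mypn then stood at -0.43.

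Actn2, the sarcomeric alpha-actinin that crosslinks actin at the Z-disc, had the smallest spread of the set among db/m libraries. It had 906, 932, 1016 and 995 CPM in db/m and 1081, 1048, 976 and 1167 CPM in db/db. Its coefficient of variation was 5.37% among db/m and 7.42% among db/db libraries, where Fhl2, Csrp3 and Myoz2 spread less, with a log2 fold change of 0.15 (SE 0.13). Fhl2, a LIM-domain protein that binds titin and also signals to the nucleus, was the least steady control value, at 1198, 1719, 300 and 1169 CPM in db/m against 1359, 1450, 1281 and 1430 in db/db. Its coefficient of variation in db/m was 53.6%, or 22.7% without db/m replicate 3, against 5.55% in db/db. The log2 fold change of Fhl2 was 0.33 (SE 0.40), and its sign turned without db/m replicates 1 and 3, to -0.07.

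**Figure D2:**
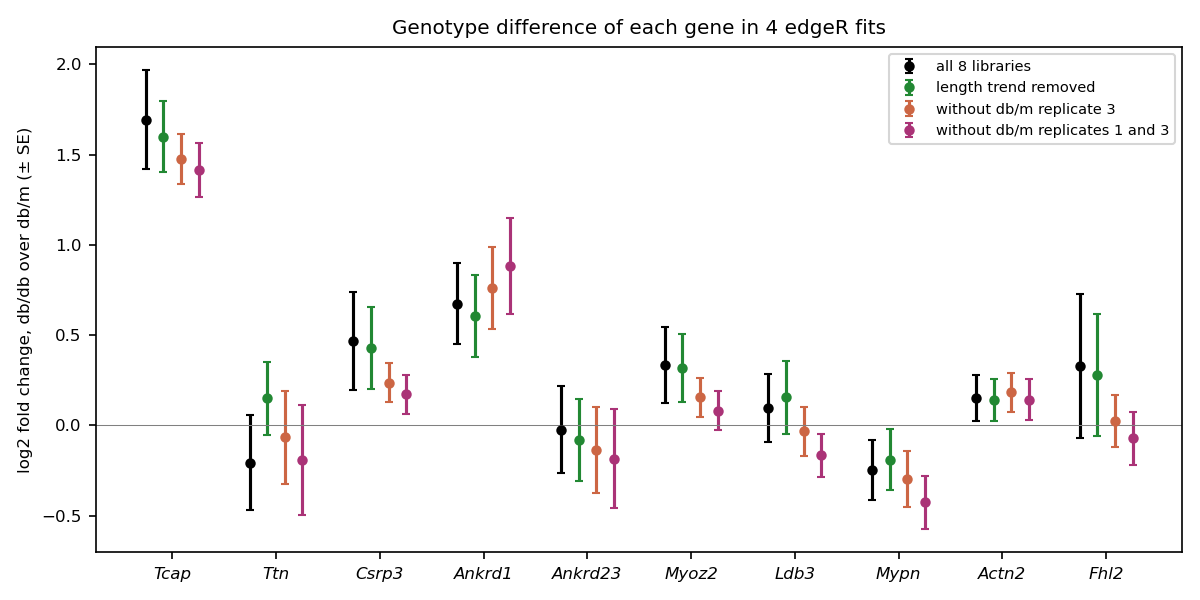
Log2 fold change of db/db over db/m (vertical axis, ± SE) for the 10 genes in 4 edgeR fits: all 8 libraries, the length trend removed, without db/m replicate 3, and without db/m replicates 1 and 3. Tcap lies between 1.41 and 1.70 in these fits, Ankrd1 between 0.61 and 0.88, and the points of Ttn, Ldb3 and Fhl2 fall on both sides of 0.

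Over all tested genes, levels in 1 library, db/m replicate 3, followed gene length far more strongly than in the others. In db/m replicate 3 the median log2 difference from the mean of the other 7 libraries was -0.56 over the 3519 genes of up to 1500 bases, -0.31 over 3645 genes of over 1500 and up to 3000 bases, 0.05 over 5752 genes of over 3000 and up to 6000 bases and 0.42 over 4495 longer genes. In the other 7 libraries the shortest class lay between 0.06 and 0.21 and the longest between -0.15 and 0.03. The opposite and weaker slope was steepest in db/db replicate 2, the library with the least Ttn. For the 10 genes, the Pearson correlation of this difference with log length was 0.72 in db/m replicate 3. It was also 0.72 in db/m replicate 4, -0.82 in db/db replicate 2 and from -0.57 to 0.10 in the rest. Without Tcap and Ttn it was 0.63 in db/m replicate 3, 0.52 in db/m replicate 4 and -0.68 in db/db replicate 2. In the rest it was then from -0.69 to 0.01. Over all genes the slope in db/m replicate 4 was -0.02 log2 units per doubling of length, of the opposite sign. Tcap is the shortest of the 10 and its genotype difference enters each value, so these correlations cannot be read as a length trend alone. Against their class median of -0.31 in db/m replicate 3, Fhl2 stood at -2.18, Csrp3 at -1.48, Ankrd23 at -0.43 and Ankrd1 at -0.11. Tcap stood at -2.08 there, against -0.56 for its class. Relative to the mean of the other 3 db/m libraries, db/m replicate 3 held Fhl2 (1897 bases) at 0.220 times, Csrp3 (2671 bases) at 0.393 times, Tcap (948 bases) at 0.420 times and Myoz2 (3423 bases) at 0.522 times, while Actn2 (3795 bases) was at 1.08 times and Ttn at 1.40 times. Some genes did not follow length: Ankrd1 (2886 bases) was at 1.22 times, Ldb3 (6105 bases) at 0.650 times and Mypn (5821 bases) at 0.858 times. With each library's trend on gene length removed, the log2 fold change of Tcap was 1.60 (SE 0.20), that of Csrp3 0.43 and that of Fhl2 0.28. RNA quality was not measured in these files, and its part in the low values of db/m replicate 3 was not tested.

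**Figure D3:**
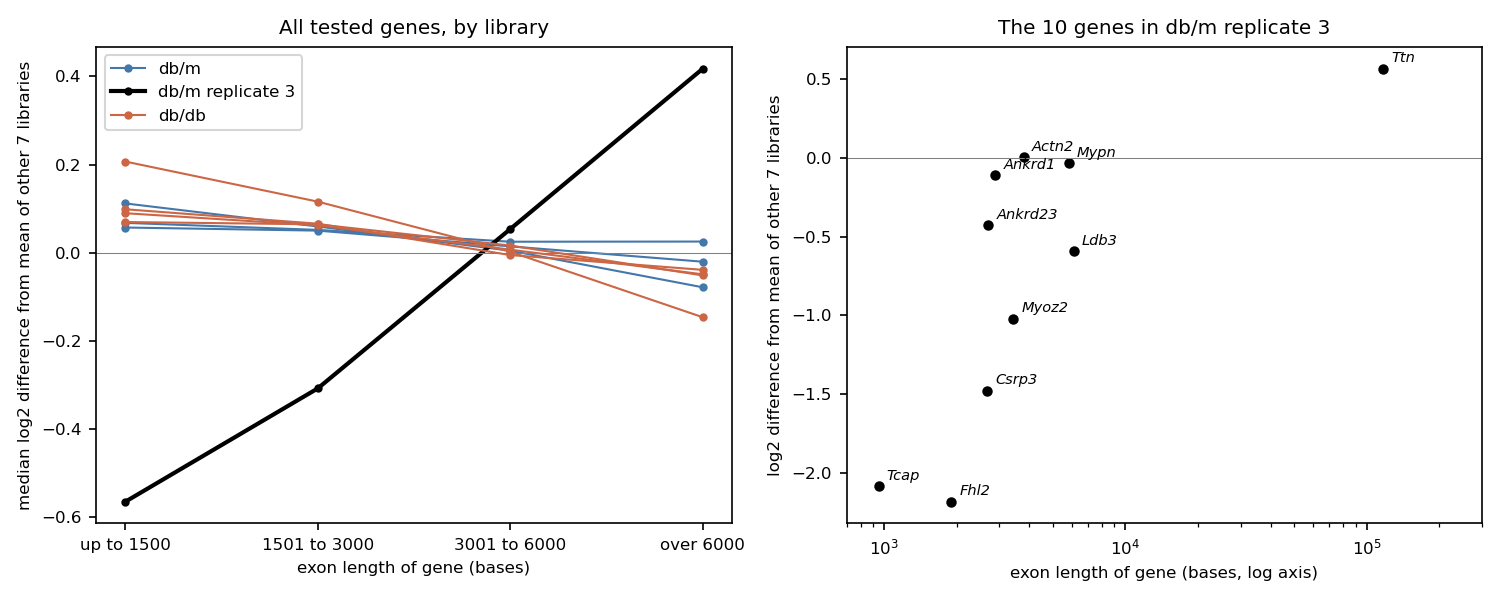
Left, median log2 difference of each library from the mean of the other 7 (vertical axis) for all tested genes in 4 classes of exon length in bases; right, the same difference for the 10 genes in db/m replicate 3 against exon length (log axis). The black line of db/m replicate 3 climbs from -0.56 to 0.42 while the other libraries stay between -0.15 and 0.21, and Tcap and Fhl2 lie lowest at right with Ttn highest.

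Ratios within a library do not depend on scaling between libraries, so Tcap was set against each other gene on a per-kilobase scale (CPM divided by exon length). The ratio of Tcap to Csrp3 was 1.88, 1.64, 2.0 and 2.09 in db/m replicates 1 to 4 and 3.59, 4.91, 4.79 and 4.45 in db/db replicates 1 to 4. That pair gave a narrow control range, db/m replicate 3 included. Tcap to Actn2 went from a range of 0.776 to 2.21 in db/m to a range of 4.17 to 5.84 in db/db. Tcap to Ttn had 22.2, 19.5, 6.0 and 18.8 in db/m and 36.2, 100.4, 66.7 and 54.2 in db/db. The lowest and highest of these fell in db/m replicate 3 and db/db replicate 2. Those libraries had the steepest slopes of level on gene length, 0.28 and -0.09 log2 units per doubling. The per-kilobase value of Ttn counts every annotated exon, including those that heart muscle may skip, so this ratio is relative and is not a number of molecules. In all 9 ratios the groups did not overlap, and all 9 share the same Tcap values. Tcap was selected on this contrast and its own groups were far apart, so this outcome was nearly fixed and adds no support. The closest approach was with Ankrd1, from 3.24 at most in db/m to 3.75 at least in db/db.

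**Figure D4:**
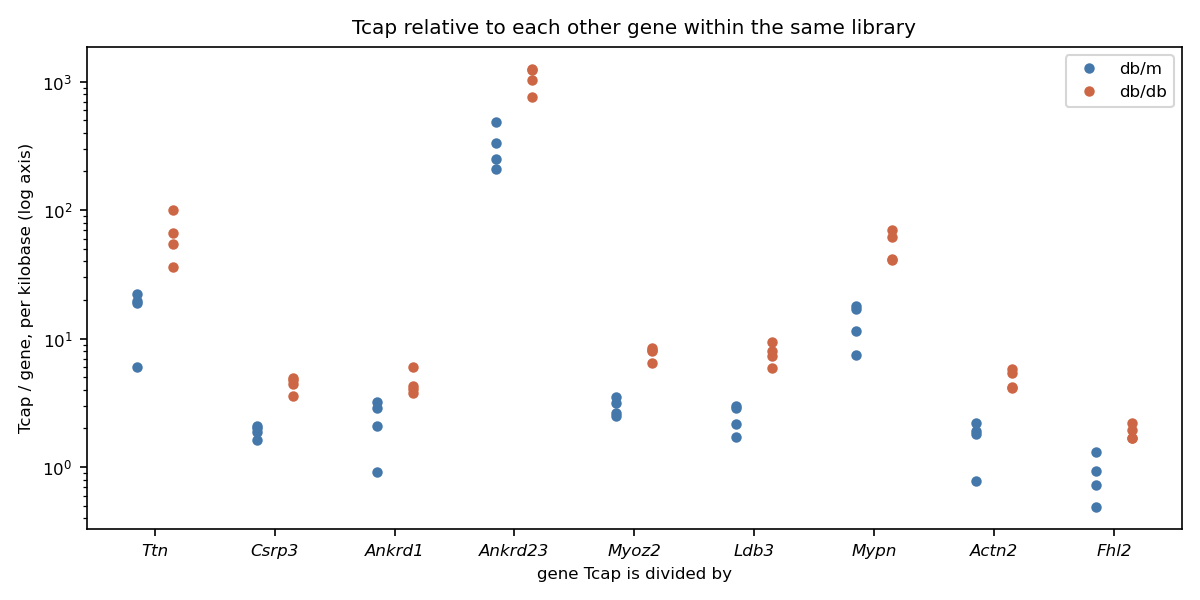
Ratio of Tcap to each of the other 9 genes within the same library, per kilobase of exon (vertical log axis), with 4 db/m and 4 db/db libraries as points for each gene. The db/db points lie above the db/m points in all 9 columns, for example 1.64 to 2.09 against 3.59 to 4.91 for Csrp3; the Ankrd23 column rests on a gene whose level is uncertain.

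The order of the genes by per-kilobase level changed at the top. In db/m Fhl2 came first (578 ± 310 CPM per kilobase) and Tcap next (423 ± 156, SD, n = 4), with overlapping library ranges, followed by Actn2, Csrp3, Ankrd1, Ldb3 and Myoz2, each overlapping the next. Actn2 was above Csrp3 in only 1 of the 4 libraries, db/m replicate 3 (268 against 104), so the order of these means rests on that library. Mypn (31.4 ± 5.19) and Ttn (27.2 ± 6.60) lay well below Myoz2 (140 ± 39.2) and overlapped each other. In db/db Tcap came first (1369 ± 146), above Fhl2 (727 ± 40.4) in all 4 libraries. Ankrd1 (314 ± 77.4), Csrp3 (310.1 ± 20.7) and Actn2 (281 ± 20.9) followed with overlapping ranges. Among all 17411 genes Tcap ranked 126 by per-kilobase level among db/m libraries and 41 among db/db libraries.

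Promoter sequences from RefSeq (GRCm38.p6, 250 bases before to 50 after each start) matched 9 of the 10 genes, with 13 promoters; Tcap was not matched. The MCAT element, CATTCC, which TEAD factors bind in muscle genes, was looked for on both strands, as were the canonical E-box CACGTG, any E-box CANNTG (which includes the former), the MEF2 site and the CArG box of serum response factor. MCAT was found in 5 of the 13 promoters, from 4 of 9 genes (Ankrd1, Ankrd23, Mypn and Ttn). Among 32841 mouse promoters of the same length 14.7% held it. MEF2 sites were found in 3 of the 13, from Fhl2, Myoz2 and Ttn (3.19% of all promoters). CArG boxes were found in 4 of the 13, from Fhl2 and Ldb3 (1.63%), where the Ldb3 promoters overlap and hold the same box. CACGTG was found in 1 of the 13, that of Actn2 (7.15%), and CANNTG in 10 of the 13, from 8 of 9 genes (72.3%). A match is a description of the letters. The promoter of Ankrd1 is shown because Ankrd1 had the largest difference after Tcap, and that of Actn2 because it varied least among db/m libraries; capitals mark MCAT (as GGAATG, its other strand) in Ankrd1 and CACGTG in Actn2, each found 2 times.
Ankrd1 promoter, chr19:36119795-36120094, minus strand: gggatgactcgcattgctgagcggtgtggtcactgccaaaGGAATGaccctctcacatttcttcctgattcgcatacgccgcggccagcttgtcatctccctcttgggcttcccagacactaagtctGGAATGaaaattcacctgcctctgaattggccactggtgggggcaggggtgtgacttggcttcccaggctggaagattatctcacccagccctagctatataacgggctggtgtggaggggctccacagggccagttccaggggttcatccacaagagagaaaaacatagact
Actn2 promoter, chr13:12340683-12340982, minus strand: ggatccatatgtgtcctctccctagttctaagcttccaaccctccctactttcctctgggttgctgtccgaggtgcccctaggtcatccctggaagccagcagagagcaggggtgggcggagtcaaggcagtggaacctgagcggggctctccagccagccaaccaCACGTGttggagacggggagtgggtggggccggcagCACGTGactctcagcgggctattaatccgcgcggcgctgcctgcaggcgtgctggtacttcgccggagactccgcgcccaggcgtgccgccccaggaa

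Tested genes next to Tcap had smaller differences between genotypes than Tcap. Of those within 50000 bases, Stard3, the upstream neighbour, had 10.9 ± 1.74 and 11.99 ± 0.383 CPM (log2 fold change 0.14, SE 0.15), and Pgap3 had 11.2 ± 2.88 and 13.9 ± 1.25 (0.31, SE 0.21; SD, n = 4). Erbb2, a growth factor receptor gene, had -0.05 (SE 0.20). Pnmt, between Tcap and Pgap3, had at most 1.24 CPM in any library. edgeR with Benjamini-Hochberg adjustment called 0 of these 4 (0.00574% of all genes). At an unadjusted p under 0.05 there were 0 (5.12% of all genes higher and 7.84% lower). At those shares, counts of 0 in 4 genes say nothing about the neighbourhood. Ppp1r1b, 1700003D09Rik and Gm25048, also within this window, were below the filter.

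Other proteins of the Z-disc and of titin were taken from 4 lists of textbook members. Of 21 further Z-disc proteins 18 were tested, and edgeR called 0, with 1 higher (Bag3) and 1 lower (Synpo2) at an unadjusted p under 0.05 (5.12% and 7.84% of all genes) and 0 by DESeq2 or limma-voom. Bag3, a chaperone partner that clears damaged filamin, had 292 ± 41.5 and 382 ± 43.5 CPM (log2 fold change 0.39, SE 0.15; edgeR adjusted p = 0.342), and Synpo2, an actin-binding Z-disc protein, had 322 ± 87.3 and 235 ± 25.1 CPM (-0.45, SE 0.19; adjusted p = 0.366). Myot, the gene of myotilin, had 0.61 (SE 0.28), and Pdlim3, an alpha-actinin-binding LIM protein that was highest in db/m replicates 1 and 3, had -0.87 (SE 0.44). The skeletal relatives Myoz1, Myoz3 and Ankrd2 were below the filter. Groups did not overlap in 1 of the 18, Smpx, which was higher in db/db (5.04% of all genes) and lowest in db/m replicate 3. The list had a median of -0.08.

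Among 15 titin-linked proteins edgeR called 0, while 7 had an unadjusted p under 0.05, all higher in db/db (5.12% of all genes), and 5 were higher without overlap (5.04% of all genes). The 7 included Myom3 (33 to 96 counts per library) and Capn3 (15 to 64), both at low levels. Capn3 was also among the 5, by a narrow gap of 1.28 CPM at most in db/m to 1.29 at least in db/db. Trim63, the MuRF1 ubiquitin ligase that binds titin at the M-band, had 111, 121, 86.2 and 137 CPM in db/m and 187, 164, 185 and 174 CPM in db/db, and the groups did not overlap (log2 fold change 0.64, SE 0.15; edgeR adjusted p = 0.193). Mybpc3, the cardiac myosin-binding protein C, had 1600 ± 148 and 2256 ± 114 CPM (0.50, SE 0.14; adjusted p = 0.251). Trim54, the related MuRF3, had 110 ± 16.9 and 152 ± 15.2 CPM (0.47, SE 0.14), with 26.6% of its exon bases shared with another gene, and Sqstm1, the autophagy receptor p62, had 366 ± 52.8 and 514 ± 64.2 CPM (0.49, SE 0.15), with 17.3% shared. DESeq2 called 2 of the 15, Mybpc3 and Trim63 (2.21% of all genes called), and limma-voom called 2, Myom2 and Trim63 (0.747%), all higher. Myom2, an M-band protein, had 543, 438, 1165 and 620 CPM in db/m and 1054, 1077, 1097 and 1127 CPM in db/db (log2 fold change 0.66, SE 0.27). The groups overlapped, since db/m replicate 3 was above every db/db library. Without that library edgeR called Myom2 and Trim63 (0.6% of all genes), and without db/m replicates 1 and 3 it called Myom2 (0.256%). The list had a median of 0.21, against 0.29 without both libraries.

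Junction and costamere proteins, and genes of stretch and calcineurin signalling, gave 0 calls by edgeR in 15 and 21 tested genes. Nrap, a junction protein that binds actin and vinculin, had 210 ± 48.1 and 298 ± 27.7 CPM (log2 fold change 0.51, SE 0.17; edgeR adjusted p = 0.303). It was called higher by limma-voom (0.747% of all genes called) and by edgeR without db/m replicate 3 (0.6%). Sorbs2, a scaffold of actin attachment sites, had 403 ± 22.3 and 518 ± 58.0 CPM without overlap (0.36, SE 0.13; adjusted p = 0.322). Parva, which links integrins to actin, had -0.47 (SE 0.20). It was highest in db/m replicates 1 and 3, at 114 and 156 CPM against at most 85.7 CPM in the other libraries. Itga7, the laminin-binding integrin of muscle, had 0.25 (SE 0.13). At an unadjusted p under 0.05 there were 2 higher and 1 lower in each list, where 5.12% of all genes were higher and 7.84% lower, and DESeq2 called 0 in either. Medians were -0.05 for the junction list and -0.06 for the stretch list.

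In the stretch list Ccn1, a matrix protein gene induced by YAP and TEAD, had 70.3 ± 9.94 and 118 ± 40.1 CPM (log2 fold change 0.75, SE 0.22; edgeR adjusted p = 0.277). Acta1, the skeletal alpha-actin of the fetal heart programme, had 380, 495, 274 and 462 CPM in db/m and 948, 731, 371 and 947 in db/db (0.90, SE 0.30; adjusted p = 0.299), and db/db replicate 3 stayed inside the db/m range. Nppa, the atrial natriuretic peptide gene, had 759, 14.4, 408 and 71.8 CPM in db/m and 24.4 to 116 CPM in db/db, high in the 2 libraries with atrial markers (-2.46, SE 0.98; adjusted p = 0.350), and 61.5% of its exon bases are shared with another gene. Nfatc3, a calcineurin-regulated transcription factor, had -0.40 (SE 0.20).

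**Figure D5:**
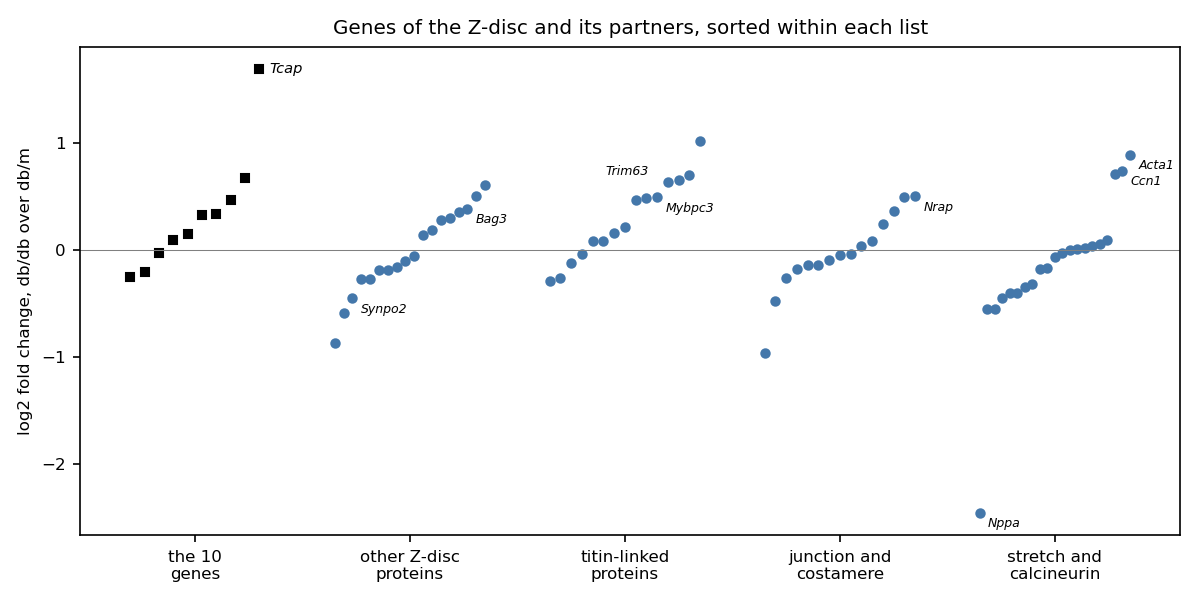
Log2 fold change of db/db over db/m (vertical axis) for the 10 genes (squares) and the tested genes of 4 lists of partner proteins (circles), sorted within each column. Tcap at 1.70 is above the highest gene of each other list; Nppa, at -2.46, is the lowest point, and it was high in the 2 db/m libraries with atrial markers.

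The genes whose profile over the 8 libraries was most like that of Tcap were found by the Pearson correlation of log2 CPM, given as a measure of likeness with no test, since the 8 libraries fall into 2 genotypes and share db/m replicate 3 as their lowest point. They were Ypel5 (0.99), Rpl22 (0.99), Ube2e3 (0.98), Gm5532 (0.98), Atg101 (0.97), Smpd2 (0.97), Trim63 (0.97) and Eif4ebp1 (0.97). Eif4ebp1, a repressor of cap-dependent translation, had 21.2 ± 6.40 and 45.0 ± 6.69 CPM (log2 fold change 1.09, SE 0.22), and Trim63 is the titin-binding ligase described above. Rpl22 is uncertain, because near-identical pseudogenes held 18318 counts against 12097 in the gene. Smpd2 shares 20.3% of its exon bases with another gene. Among the other 9 genes of the set, Csrp3 (0.83) and Myoz2 (0.81) were nearest to Tcap, at ranks 525 and 659 among the 8775 genes compared. Ttn was at -0.45. With each genotype's mean subtracted, the nearest genes were Gstm2, Mrps26, Srgn, Ubp1, Mdp1, Egfl7, Pde4c and Emc7 (0.98 to 0.99), all lowest in db/m replicate 3, and Csrp3 stood at 0.93. Mrps26 is uncertain too, with 2350 counts in near-identical pseudogenes against 3933 in the gene. Ubp1 and Egfl7 share 12.9% and 11.2% of their exon bases with other genes.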

How the data were processed

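RNA was sequenced from 8 mouse heart libraries, grouped by the genotype in each label. The authors deposited raw counts for each Ensembl gene, per the file headers. The submitters' processing notes name mm10 as the build. No source used here gives the aligner, the counter or the strandedness. The deposited table also holds another value per gene, its exon length. The 8 single-sample files held the same counts.

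Symbols came from GENCODE M21 by Ensembl identifier (55394 of 55573 matched). edgeR 4.0.16 in R 4.3.3 was run on all genes kept by filterByExpr (minimum count 10, minimum total 15), with TMM scaling, a robust quasi-likelihood F test on genotype, two-sided, Benjamini-Hochberg adjustment and a threshold of 0.05. SE is derived from the test. DESeq2 1.42.0 and limma 3.58.1 were alternatives, beside other scalings, filters, a replicate block, a lowess of each library on log length as offset, no pseudogenes, and fewer libraries. Log2 CPM used a prior count of 2. The tests were also run on simulated counts with known changes. Those counts held no trend on gene length and no other tissue in single libraries, so that check does not cover these features of the data.

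The members, lists, tests and alternatives were chosen with earlier results of these data known. Named partners are the 4 genes with the smallest p of each list (Myom2 and Smpx were added after their values were seen, as were the neighbours of Tcap), and genes like Tcap are the 8 with the highest correlation among those with a mean of at least 10 CPM that are not pseudogenes. No pseudogene matched a member at 95% identity over 50% of its length (BLAST 2.17.0). Same-numbered libraries did not deviate together, with correlations of -0.09, 0.06, 0.03 and 0.02 for replicates 1 to 4, so numbers were not used as pairs.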

Additional observations from a re-analysis of the deposited data

Results flagged for a closer look

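Of 20 groups of 4 libraries, 1 held a value set far from the others: Ankrd23 in db/db replicate 1 had 4.31 CPM, and the next library had 3.36. By chance about 1 group in 20 is marked this way.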

How the results depend on the processing

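Across 17 alternatives the log2 fold change of Tcap ran from 1.41 (without db/m replicates 1 and 3) to 1.90 (without db/m replicate 4). Each of the 170 values of single members moved by less than the spread between libraries. That comparison could hardly come out otherwise and shows no stability. The alternatives reuse the same libraries, and leaving out a single library can hardly shift a group mean by that much. The count of members called rests on the contrast they were selected on and supports nothing. It was 0 with all libraries (0.00574% of all genes called) and 1 in 6 alternatives, Tcap each time. These were DESeq2 (2.21% of all genes), limma-voom with sample quality weights (0.747%), no filter (0.0902%) and the length trend removed (0.0689%). The rest were the fits without db/m replicate 3 (0.6%) and without db/m replicates 1 and 3 (0.256%). The count of members called ran from 0 to 1 when single libraries were left out. Titin-linked proteins gave 2 calls by DESeq2, 2 by limma-voom, 1 without db/m replicates 1 and 3 and 0 to 2 without single libraries; junction proteins gave 1 by limma-voom and 0 to 1 without single libraries. Over all genes edgeR called 1, against 377 by DESeq2, 130 by limma-voom, 27 with no filter, 5 with the replicate block, 12 with the length trend removed, 46 without db/m replicates 1 and 3 and 0 to 106 without single libraries, the highest without db/m replicate 3. The cause was not tested. With the replicate number as a block, Tcap had a log2 fold change of 1.77 and 0 members were called; in 1 of 4 numbers a db/m library correlated best with its own number. Depth did not limit the members other than Ankrd23, at 63 to 97 counts.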
